A study of Mus musculus with 5 samples.

Results

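The 10 transcripts described here come from imprinted loci: Meg3, Rian, Mirg and Dlk1 of one locus, Airn and Igf2r of another, H19 and Igf2 of the third, and Peg3 and Grb10. They were taken by symbol from the 32285 genes counted in single nuclei of mouse liver, and all 10 were found. Levels were summed per library over hepatocyte nuclei, which are the 23267 of 57080 barcodes with at least 2000 UMIs (unique molecular identifiers, 1 per counted RNA molecule) and at least 1 UMI of Hnf4a, a transcription factor of hepatocytes. The set was chosen by the levels of Meg3 and Airn, which differed by liver zone and by diet in these same nuclei, so their values in hepatocyte nuclei are a description with no test. The other members are given with tests across all genes.

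An imprinted gene is expressed mainly from the chromosome of one parent, and which parent is set by DNA methylation placed in the egg or sperm. Such genes often sit together, with long non-coding RNAs made from one parental chromosome and protein-coding genes from the other. Several act on growth through insulin-like growth factor, and H19, Igf2 and Dlk1 are abundant in fetal liver and fall to very low levels after birth. Hepatocytes also differ by position: those around the central vein (pericentral) make glutamine and respond to Wnt signals, and those around the portal vein (periportal) make urea and glucose.

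The 5 libraries came from livers of male wild-type C57BL6/J mice, 3 on regular chow (chow replicates 1 to 3) and 2 on a MASH diet rich in fat, fructose and cholesterol (MASH replicates 1 and 2), which brings on metabolic dysfunction-associated steatohepatitis. Feeding began at an age of 10 to 12 weeks and lasted 5 months. All mice carried the same wild-type genotype, and whether a library was 1 mouse or a pool is not stated for these samples, so p-values measure the spread between libraries. Mice of a single strain carry no sequence difference between the parental chromosomes, so which parental copy gave a transcript cannot be told apart.

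Libraries held 35612373 to 49137377 UMIs, and hepatocyte nuclei numbered 4222, 6744 and 7006 in chow and 2684 and 2611 in MASH, with a median of 3871.5 to 5475 UMIs each. Between any 2 libraries 23 to 48 barcodes were shared, at most 0.399% of the smaller library. All 10 hepatocyte markers checked were above 0 in every library's hepatocyte nuclei, though Hnf4a is among them and was required of each nucleus. Their summed level was 10620, 14458 and 15186 CPM (UMIs of the genes per 1000000 UMIs of the summed nuclei) in chow and 6453 and 5393 in MASH. Summed markers of hepatic stellate cells (HSCs, the vitamin A-storing cells of the liver) stood at 166, 91.0 and 101 CPM in chow and at 333 and 353 in MASH. Macrophage markers were at 42.6 to 57.7 in chow and at 235 and 133 in MASH, cholangiocyte markers at 41.6 to 75.7 and at 129.7 and 206, and markers of proliferating cells at 4.55 to 11.2 and at 61.8 and 50.7. Chow replicate 3 stood apart in acute-phase genes, with Saa1 at 6701 CPM against 102 to 765 in the other libraries and Lcn2 at 368 against 4.99 to 45.7.

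Zones were set by a score in each nucleus, pericentral where Glul, Oat and Slc1a2 outweighed Cyp2f2, Hal and Sds and periportal for the reverse. Pericentral nuclei numbered 1110, 1648 and 1314 under chow, with 743 and 865 under the MASH diet, and periportal nuclei 2672, 4408 and 4892 in chow and 1416 and 1004 in MASH. Nuclei with equal scores (10.2 to 28.4% of a library) were left out of both. The split was checked on 15 pericentral markers that the score did not use, of which 14 passed as higher in pericentral nuclei in chow and 15 in MASH, with median log2 differences of 2.15 and 2.02. Of 15 periportal markers, 13 in chow and 10 in MASH were lower there. The median zone by diet difference of the 15 pericentral markers was -0.06 on the log2 scale, but 7 of the 15 periportal markers were called, where 2.14% of genes were: Apoa4 (2.23) and Ctsc (1.80) were positive, and Ass1 (-1.10), Cps1 (-0.82), Tat (-0.81), Arg1 (-0.76) and Pck1 (-0.58) negative. Over all hepatocyte nuclei the pericentral markers Slc13a3 (2.66), Rhbg (1.91), Axin2 (1.57) and Rnf43 (1.39) and the periportal marker Cdh1 (1.29) rose in MASH, and Cps1 fell by 1.62.

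The locus of Meg3 lies on chromosome 12 (GRCm38). Dlk1, which encodes a Notch-like membrane ligand, spans chr12:109452823-109463336 on the plus strand and ends 77.7 kb before Meg3 (chr12:109541001-109571726, plus strand), a long non-coding RNA. Rian (chr12:109603940-109661716), host of small nucleolar RNAs, and Mirg (chr12:109729764-109749460), host of microRNAs, follow on the same strand. From the start of Meg3 to the end of Mirg the annotation holds 54 microRNA hairpins on the plus strand over 208 kb, of which 1 lies in Meg3, 3 in Rian and 14 in Mirg. On chromosome 17, Airn (chr17:12741311-12860136, plus strand) starts inside Igf2r (chr17:12682406-12769664, minus strand) and runs against it over 28.4 kb. No base is exonic in both. Igf2r is the receptor that takes up insulin-like growth factor 2 and mannose 6-phosphate enzymes, and Airn is the non-coding RNA that silences Igf2r on the paternal chromosome in early development. H19 (chr7:142575529-142578143) and Igf2 (chr7:142650766-142666816) lie 72.6 kb apart on the minus strand of chromosome 7. Peg3 (chr7:6703892-6730431) and Grb10 (chr11:11930508-12038683) are both on the minus strand.

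The promoters of Meg3, Airn and Igf2r are shown because the results turn on these 3 transcripts, which start in windows of unlike base composition. Each is the 250 bases before the RefSeq start (GRCm38.p6), read on the gene's own strand, with CpG dinucleotides, the targets of DNA methylation, in capitals. They lie at chr12:109540746-109540995 (plus), chr17:12741061-12741310 (plus) and chr17:12769707-12769956 (minus).
Meg3: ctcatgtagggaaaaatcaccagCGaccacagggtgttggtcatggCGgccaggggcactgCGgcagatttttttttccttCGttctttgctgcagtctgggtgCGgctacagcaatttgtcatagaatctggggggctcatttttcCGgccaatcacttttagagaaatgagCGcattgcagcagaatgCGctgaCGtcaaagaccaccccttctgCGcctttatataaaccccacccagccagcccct
Airn: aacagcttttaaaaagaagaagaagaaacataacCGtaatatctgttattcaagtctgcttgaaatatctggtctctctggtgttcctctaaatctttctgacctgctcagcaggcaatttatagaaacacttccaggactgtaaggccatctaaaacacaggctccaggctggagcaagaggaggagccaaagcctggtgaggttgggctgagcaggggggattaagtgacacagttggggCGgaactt
Igf2r: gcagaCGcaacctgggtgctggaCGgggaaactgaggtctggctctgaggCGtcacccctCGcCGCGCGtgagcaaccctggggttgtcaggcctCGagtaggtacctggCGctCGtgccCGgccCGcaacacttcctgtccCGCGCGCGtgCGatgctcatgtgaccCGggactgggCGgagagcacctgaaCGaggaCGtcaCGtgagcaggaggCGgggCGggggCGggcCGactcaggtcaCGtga

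The Meg3 window held 10 CpG and the Airn window 2, against 27 in Igf2r, and the median of the 32851 promoters of the table was 6. At least 10 CpG were found in 37.8% of promoters, at least 2 in 81.2% and at least 27 in 8.56%. The word CTTTGA, searched on both strands as the core of the site read by the Wnt-signal factors of the TCF family, was found once in the Meg3 window and in neither other window. It stood in 13.8% of all promoters, and a match is a description of letters, not a site. The table lists another, internal start of Meg3, whose window (chr12:109545148-109545397) held neither a CpG nor this word.

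Mature microRNAs were not measured by these libraries, but their hosts were, and 1 microRNA from each host is shown with its seed (bases 2 to 8) in capitals. The sequences are those of RefSeq for GRCm38.p6, and their 4 seeds differ.
mmu-miR-770-5p (in Meg3): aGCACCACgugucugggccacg
mmu-miR-370-3p (in Rian): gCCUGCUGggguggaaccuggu
mmu-miR-410-3p (in Mirg): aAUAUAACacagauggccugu
mmu-miR-675-5p (in H19): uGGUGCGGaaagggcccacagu

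Meg3 was a pericentral transcript in chow and was near its periportal level in both zones in MASH. In pericentral nuclei it stood at 54.7, 47.3 and 200.3 CPM in chow replicates 1 to 3 and at 3.68 and 2.98 in MASH replicates 1 and 2. These values rest on 361, 369 and 1528 UMIs in chow and on 16 and 19 in MASH. In periportal nuclei it was at 2.47, 4.67 and 5.48 in chow and at 3.28 and 2.46 in MASH. Every chow library was above both MASH libraries in the pericentral zone, as for 13.4% of all genes there. The ranges overlapped in the periportal zone. The ratio of pericentral to periportal level in chow was 22.1, 10.1 and 36.5, against 1.12 and 1.21 in MASH. The size of the ratio in chow replicate 2 depends on the split: with only nuclei that had a UMI of one zone's score genes and none of the other's, Meg3 was at 70.5, 10.8 and 158 CPM in pericentral and 1.96, 4.87 and 2.78 in periportal nuclei of chow, and at 2.65 and 2.96 against 2.27 and 2.21 in MASH. In that library Meg3 was also at 15.9 CPM in nuclei with a UMI of the periportal gene Cyp2f2 and at 14.8 in those without. In the fit across all genes with TMM scaling, Meg3 differed between diets by -5.35 (SE 0.95) on the log2 scale in pericentral and by -0.96 (SE 0.57) in periportal nuclei. Its zone by diet difference was -4.25 (SE 0.80), and 7 of the 14264 genes fitted had a more negative one. Meg3 was chosen for this pattern, so the rank is a description and no test. Chow replicate 3 held the highest level, and without it the pericentral difference between diets was -4.11.

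**Figure D1:**
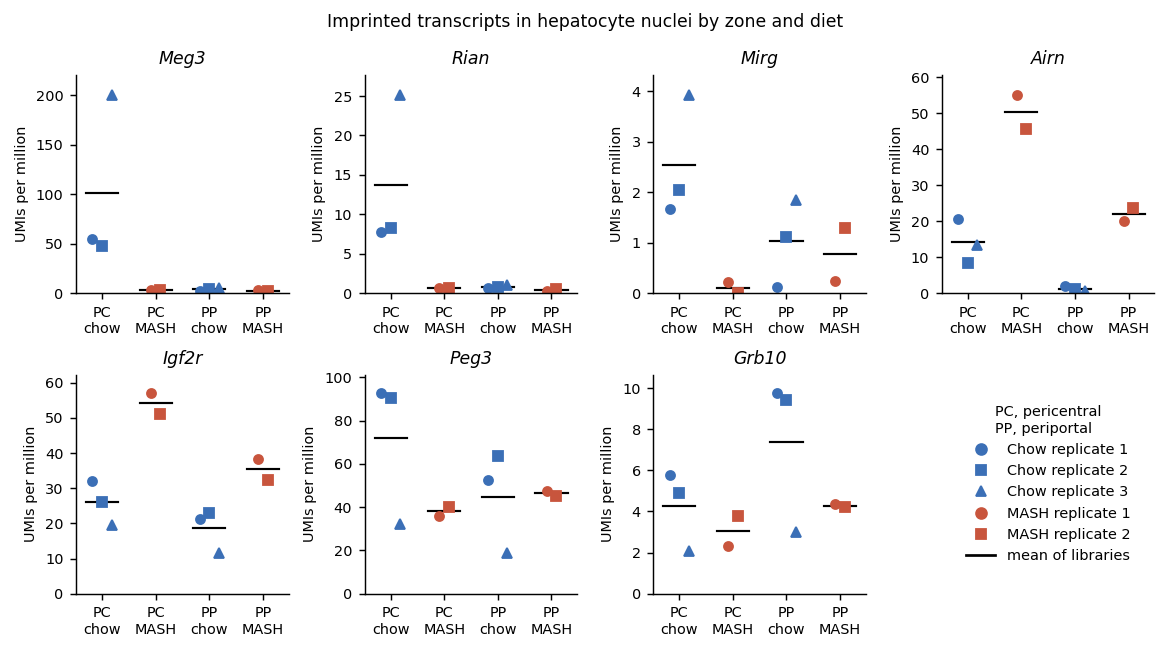
Level of each of 7 transcripts (vertical axis, CPM in the summed nuclei of a library) in pericentral (PC) and periportal (PP) hepatocyte nuclei of chow and MASH libraries, 1 point per library with the mean as a bar. Meg3 and Rian are high in the chow pericentral sums only, while Airn and Igf2r are higher in both MASH libraries than in all chow libraries in both zones.

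The pericentral Meg3 of chow came from few nuclei. Nuclei with at least 5 Meg3 UMIs, a limit chosen after the counts per nucleus were seen, numbered 8 of 1110, 19 of 1648 and 51 of 1314 in chow replicates 1 to 3. These are 0.721% (exact 95% binomial interval 0.312 to 1.42), 1.15% (0.696 to 1.79) and 3.88% (2.90 to 5.07) of the pericentral nuclei. They held 89.5%, 82.9% and 94.4% of all pericentral Meg3 UMIs, with up to 82, 37 and 125 in 1 nucleus. In MASH 0 of 743 and 0 of 865 pericentral nuclei had 5 or more, which allows shares of up to 0.404% and 0.347% (intervals and limits cover counting error only). Over all chow libraries there were 78 of 4072, and over both MASH libraries 0 of 1608, which allows up to 0.187%. The remaining pericentral nuclei stood at 5.79, 8.18 and 11.6 CPM in chow, still above the 3.68 and 2.98 of MASH. Among periportal nuclei 0, 2 and 2 reached 5 UMIs in chow and 0 and 1 in MASH.

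**Figure D2:**
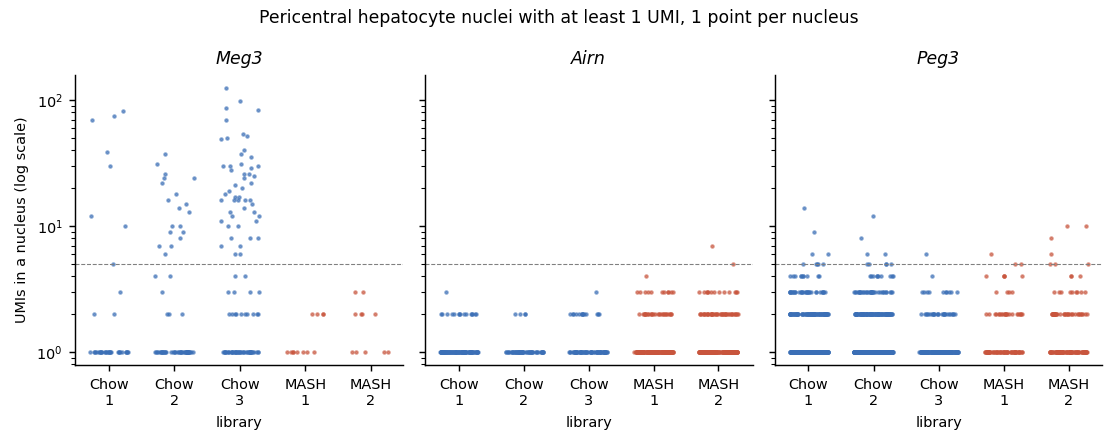
UMIs of Meg3, Airn and Peg3 in a nucleus (vertical axis, log scale) for each pericentral nucleus with at least 1 UMI, 1 point per nucleus with random sideways spread, by library, and a dashed line at 5 UMIs. Meg3 reaches 82, 37 and 125 UMIs in single chow nuclei and stays below 5 in MASH, while Airn is spread over many nuclei with few UMIs each.

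The Meg3-rich nuclei had high levels of the central vein genes Glul and Slc1a2. Glul, glutamine synthetase, which marks the last cell layers around the central vein, stood at 1652, 1875 and 1187 CPM in them against 379, 320 and 323 in pericentral nuclei without a Meg3 UMI. Slc1a2, a glutamate transporter, was at 2280, 2039 and 1762 against 909, 616 and 763. Both genes are part of the zone score, so a high level is partly built in. Levels of other pericentral genes in these nuclei are not given here. Hnf4a was alike in both groups in chow replicates 1 and 3, at 326 against 336 and 429 against 422. In replicate 2 it was lower in the Meg3-rich nuclei, at 328 against 473. At least 1 Hnf4a UMI was asked of every nucleus in both groups, so its presence is built in. Markers of mesothelial cells, the class with the highest Meg3 level among the named classes, were at 0 in all 3 sets of Meg3-rich nuclei. HSC markers were at 186, 20.5 and 161 against 82.2 to 114, and endothelial markers at 861, 30.7 and 44.0 against 194, 80.3 and 71.7. Doublet calls fell on 0 of 8, 3 of 19 and 5 of 51 of them against 74 of 1068, 158 of 1577 and 126 of 1202. Their median depth was 4106, 4611 and 4593 UMIs against 5549.5, 4181 and 5174.5.

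The share of Meg3-rich nuclei was higher among nuclei with more of the central vein genes. With each nucleus thinned to 2000 UMIs before Glul, Oat and Slc1a2 were counted, nuclei in which all 3 were found had at least 5 Meg3 UMIs in 3 of 165 (1.82%), 12 of 217 (5.53%) and 17 of 144 (11.8%) cases in chow. In MASH the counts were 0 of 118 and 0 of 87, which allows up to 2.54% and 3.45%. Exact binomial intervals of the chow shares were 0.377 to 5.22%, 2.89 to 9.46% and 7.03 to 18.2%. Only the interval of chow replicate 3 lay wholly above both limits, and the others reached below the limit of MASH replicate 2. These intervals and limits cover counting error only. Meg3 was chosen for its difference by zone and diet, so they are a description and no test. The score genes themselves differed between diets: Glul was at 1012 and 972 CPM in MASH pericentral nuclei without a Meg3 UMI, where the same nuclei of chow held 379, 320 and 323, while Oat was found in 257 of 2684 and 205 of 2611 hepatocyte nuclei of MASH against 892 of 4222, 1706 of 6744 and 887 of 7006 of chow. By level, Meg3 rose in chow from 4.42 ± 1.21 CPM (SD, n = 3) in nuclei with 0 of the genes over 17.3 ± 18.9 and 149.8 ± 139.3 to 432 ± 374 in nuclei with all 3. In MASH the means were 2.53, 4.64, 2.84 and 2.52 (n = 2). The spread in chow was as large as the mean because replicate 3 stood at 863 in the top step, where the lowest library was at 190.1.

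Rian and Mirg, which follow Meg3 on the same strand, were at lower levels and also lower in the pericentral nuclei of MASH. Rian stood at 7.72, 8.34 and 25.2 CPM in chow pericentral nuclei and at 0.69 and 0.63 in MASH, where it rested on 3 and 4 UMIs. In periportal nuclei it was at 0.67, 0.77 and 1.02 in chow and at 0.36 and 0.58 in MASH. Each pericentral chow value was more than 10 times the highest MASH value, but with the stricter split chow replicate 2 held 1.13 CPM (4 UMIs) against 0.758 and 0.455 in MASH and 0.974 in its own periportal nuclei. With the first split 13.4% of all genes had each MASH level under every chow level in this zone. Over all hepatocyte nuclei Rian fell by 3.42 (SE 0.70) on the log2 scale in MASH (edgeR quasi-likelihood test, adjusted p = 0.0219), where 13.7% of the genes tested were called and 4.48% were called lower. Of the 5 members tested there beside Meg3 and Airn, it was the only one called. The call was lost without MASH replicate 1 (adjusted p = 0.164), without MASH replicate 2 (0.153) and with at least 2 Hnf4a UMIs asked of each nucleus (0.103). Within pericentral nuclei it fell by 4.75 (SE 0.92, adjusted p = 0.0185), where 13.4% of genes were called and 4.55% were called lower, and the call was lost without either MASH library (0.130 and 0.163) and with the stricter split (0.0695). In periportal nuclei the difference was -1.21 (adjusted p = 0.262), where 11.5% of genes were called.

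The zone difference of Rian in chow was 4.01 on the log2 scale (adjusted p = 2.44e-07), where 21.6% of genes were called (11.3% higher and 10.3% lower in pericentral nuclei), and in MASH it was 0.42 (adjusted p = 0.882), where 4.83% were called. The difference between these, -3.58 (SE 0.96), missed the threshold (adjusted p = 0.0839). For Mirg the pericentral UMIs in chow were 11, 16 and 30, against 1 and 0 in MASH, and it fell by 4.82 there (adjusted p = 0.0322), while the periportal counts in chow were 2, 23 and 51, against 2 and 9 in MASH. The pericentral call was lost without MASH replicate 1 (adjusted p = 0.132), MASH replicate 2 (0.26) or chow replicate 2 (0.0536), with values of -7.35 to -3.66 over the alternatives. Its zone difference in chow was 1.24 (adjusted p = 0.0421), a call lost in 8 of 13 alternatives, and its zone by diet difference missed the threshold (adjusted p = 0.166). In single pericentral nuclei of chow thinned to 2000 UMIs, Rian was found in 7 of 22, 12 of 43 and 31 of 77 nuclei with Meg3 (31.8%, 27.9% and 40.3%) and in 0.460%, 0% and 0.404% of those without. The Meg3-rich nuclei held Rian at 931, 646 and 656 CPM and Mirg at 233, 102 and 69.6, against 1.11, 0.271 and 1.44 for Rian and 0.158, 0.677 and 1.44 for Mirg in pericentral nuclei without Meg3. Dlk1, the protein-coding gene of the locus, had 1 UMI over all chow and 2 over all MASH hepatocyte nuclei.

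Airn was pericentral in chow too, but it was higher in MASH and in both zones. Pericentral nuclei held it at 20.6, 8.47 and 13.4 CPM in chow and at 55.2 and 45.6 in MASH. Periportal nuclei held it at 2.07, 1.16 and 0.69 in chow, from 31, 24 and 19 UMIs, and at 20.2 and 23.8 in MASH, from 166 and 164. Each MASH library exceeded every chow library in both zones, as did 37.7% of all genes in pericentral and 40.1% in periportal sums. In the fit the difference between diets was 1.57 (SE 0.34) on the log2 scale in pericentral and 3.80 (SE 0.38) in periportal nuclei. The ratio between zones was 9.94, 7.32 and 19.4 in chow, over the few periportal UMIs given, against 2.74 and 1.92 in MASH. The fitted zone by diet difference was -2.27 (SE 0.29), with 46 of 14264 genes more negative, a rank that is a description since Airn was chosen for this pattern. Because the chow periportal level is near background, as given with the shares of nuclei, these values depend on that level and are not exact sizes. Over the alternatives the zone by diet difference ran from -2.90 to -1.88, and the difference over all hepatocyte nuclei, 2.62 (SE 0.33), from 2.38 to 2.95. HSC, macrophage, cholangiocyte and proliferation markers were higher in the MASH sums too, and their part in the result was not tested. Without called doublets and nuclei of other named classes the difference was 2.65.

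Unlike Meg3, Airn was spread over many nuclei. In chow its pericentral UMIs lay in 119, 62 and 86 nuclei with at most 3 in 1 nucleus, and in MASH in 188 and 212 nuclei with at most 4 and 7. The share of pericentral nuclei with a UMI in chow was 10.7%, 3.76% and 6.54%, against 25.3% and 24.5% in MASH. At 2000 UMIs per nucleus the share was 2.80% ± 1.16 (SD, n = 3) in chow and 9.46% ± 1.28 (SD, n = 2) in MASH, and in periportal nuclei 0.166% ± 0.122 and 4.18% ± 0.423. Endothelial-like nuclei, taken as a class with little of either transcript, had an Airn UMI in 0.182% of cases under chow and 0.727% under the MASH diet, and a Meg3 UMI in 0.182% and 0.208%, at library medians of 842 to 1097 UMIs. At 2000 UMIs the periportal share of Airn in chow was no higher than this share at a lower depth, so it cannot be told from background RNA, and the periportal and zone values of Airn above are set against such a level. The level of Airn went up with the number of central vein genes under both diets, from 1.53 ± 1.18 CPM with 0 of them to 31.2 ± 13.8 with all 3 in chow (n = 3), and from 28.9 ± 3.15 to 77.7 ± 4.89 in MASH (n = 2). The MASH mean with 0 genes found was close to the chow mean with all 3.

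**Figure D3:**
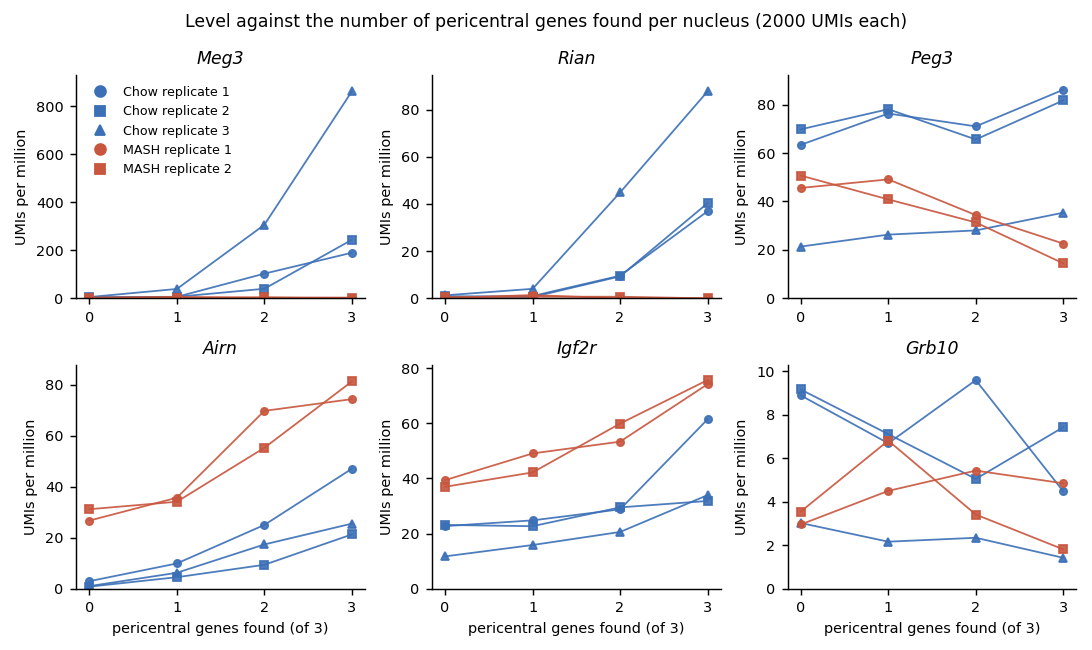
Level (vertical axis, CPM) of 6 transcripts against the number of the genes Glul, Oat and Slc1a2 found per nucleus at 2000 UMIs (horizontal axis, 0 to 3), 1 line per library. Meg3 and Rian climb in the chow libraries and stay near 0 in MASH, Airn and Igf2r climb under both diets from a higher start in MASH, and Peg3 goes down in MASH.

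Igf2r, which Airn overlaps, was also higher in MASH, by a smaller step. It stood higher in pericentral than in periportal nuclei under both diets, with a smaller zone difference than Airn. It stood at 32.1, 26.2 and 19.7 CPM in chow pericentral nuclei and at 57.0 and 51.2 in MASH, and at 21.3, 22.9 and 11.5 against 38.3 and 32.4 in periportal nuclei. The lowest MASH level exceeded the highest chow level in both zones, as for the 37.7% and 40.1% of genes given for Airn. Over all hepatocyte nuclei the difference was 0.73 (SE 0.26) on the log2 scale and missed the threshold (adjusted p = 0.0921), and in periportal nuclei it was 0.62 (adjusted p = 0.185). In pericentral nuclei it was 0.80 (adjusted p = 0.0489), a call lost in 8 of 11 alternatives. Pericentral nuclei were higher than periportal ones by 0.45 in chow (edgeR, adjusted p = 0.00968), where 21.6% of genes were called for zone. In MASH they were higher by 0.59 (edgeR, adjusted p = 0.0169), where 4.83% of genes were called. The chow call was lost without chow replicate 1 (0.0616) or 3 (0.0729), and the MASH call without either MASH library (0.224 and 0.337) and with DESeq2 (0.0653). The zone by diet difference was 0.14 (SE 0.17, adjusted p = 0.782). Within single pericentral nuclei at 2000 UMIs, Igf2r was found in 10.9%, 5.88% and 13.8% of nuclei with Airn in chow and 5.19% and 10.8% in MASH, against 5.92%, 5.58% and 3.81% and 8.86% and 8.34% of those without.

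**Figure D4:**
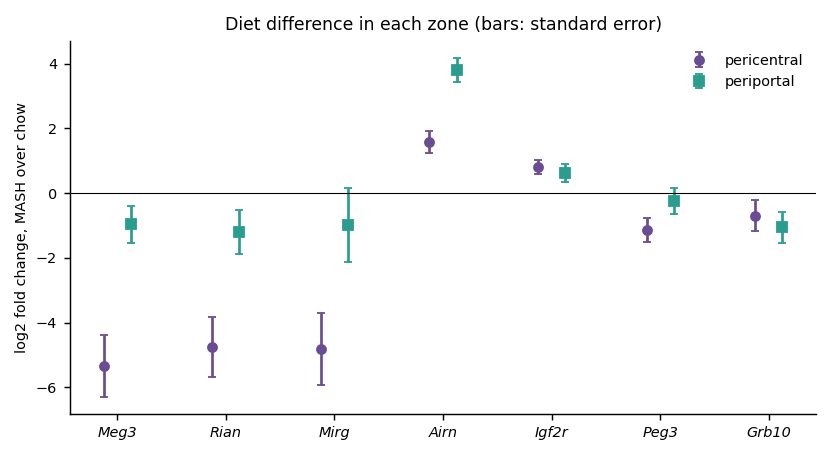
Log2 fold change of MASH over chow (vertical axis) for 7 transcripts in pericentral and periportal hepatocyte nuclei, as points with the standard error of the edgeR fit as bars. Meg3, Rian and Mirg lie far lower in the pericentral than in the periportal nuclei, Airn is positive in both and larger in the periportal, and Peg3 is lower in the pericentral.

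The zone difference of Peg3 changed with the diet. This gene encodes a zinc finger protein and is expressed from the paternal chromosome. In pericentral nuclei it stood at 92.7, 90.4 and 32.4 CPM in chow and at 36.1 and 39.9 in MASH, and in periportal nuclei at 52.3, 63.4 and 18.9 in chow and at 47.6 and 45.0 in MASH. The ratio of pericentral to periportal level in chow was 1.77, 1.43 and 1.71, against 0.758 and 0.886 in MASH, so the groups did not overlap, and with 0.5 CPM added the ratio was lower in both MASH libraries for 19.4% of genes. The zone difference was 0.64 in chow (adjusted p = 9.28e-05) and -0.31 in MASH (adjusted p = 0.197). Their difference, -0.95 (SE 0.14), passed the test (adjusted p = 0.0046), where 2.14% of genes were called and 1.09% were called negative. It was the 1 member called of the 5 tested, and it lost the call without MASH replicate 1 (adjusted p = 0.108) and without MASH replicate 2 (0.0547), at values of -1.27 to -0.74 over the alternatives. With 0 of the central vein genes found, Peg3 was at 51.5 ± 26.3 CPM in chow and 48.1 ± 3.60 in MASH, and with all 3 at 67.7 ± 28.1 and 18.5 ± 5.78.

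Between diets, Peg3 turned on chow replicate 3, its lowest library. Over all hepatocyte nuclei the difference was -0.54 (adjusted p = 0.363), and without that library -0.90 (adjusted p = 0.0357). In pericentral nuclei it was -1.14 (SE 0.36, adjusted p = 0.0749), and without that library -1.44 (adjusted p = 0.00514). In periportal nuclei the fitted difference was -0.24 (adjusted p = 0.712), while the mean unscaled level was 44.9 ± 23.2 in chow and 46.3 ± 1.81 in MASH, so the direction there depends on scaling. Meg3 was highest in the library where Peg3 was lowest, and Saa1 and Lcn2 were highest there as well. The part of that library's acute-phase state in these levels was not tested.

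Grb10, an adaptor that binds the insulin receptor and limits its signal, was the member with a periportal preference. It stood at 9.76, 9.44 and 2.98 CPM in periportal and 5.75, 4.87 and 2.10 in pericentral nuclei of chow, and at 4.37 and 4.20 against 2.30 and 3.76 in MASH. The zone difference was -0.84 in chow (adjusted p = 0.00486, lost without chow replicate 2, 0.0652, and with DESeq2, 0.0728) and -0.50 in MASH (adjusted p = 0.479), and the difference between diets of -1.05 over all hepatocyte nuclei missed the threshold (adjusted p = 0.149). Without chow replicate 3, again the lowest chow library, it was -1.41 (adjusted p = 0.0281). Over the 16 alternatives this difference ran from -2.35 to -0.83, and 2 of them were called. The hepatocyte nuclei held 564 Grb10 UMIs of 94466769 in chow and 123 of 32496774 in MASH. Clusters named hepatocyte-like with no limit on UMIs held 559 of 100934752 in chow and 59 of 42546327 in MASH. The cause of the lower MASH level in these clusters was not tested.

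H19 was found in MASH and in no chow hepatocyte nucleus. There were 0 UMIs in the 3 chow libraries, whose 94466769 UMIs allow up to 0.0318 CPM, and 39 and 5 UMIs in MASH replicates 1 and 2 (2.58 and 0.29 CPM). With a floor of 3 counts over the chow group, the level was at least 42.6-fold higher in MASH. The bound rests on MASH replicate 1: without that library it is at least 9.06-fold, without MASH replicate 2 at least 81.2-fold, and without chow replicate 3 at least 24.9-fold. The UMIs lay in 15 and 4 nuclei, 20 of them in 1 nucleus of MASH replicate 1, and 37 of the 44 lay in periportal and 6 in pericentral nuclei. Of the periportal UMIs 33 came from MASH replicate 1. Summed markers of the red blood cell lineage stood at 772 CPM in the periportal nuclei of that library, against 50.3 to 116 in the others. Their part in the H19 counts was not tested. H19, Igf2 and Dlk1 did not pass the filter on low counts and have no test. Igf2 had 5 UMIs over all chow and 1 over all MASH hepatocyte nuclei, so H19 was found there without a like number of Igf2 UMIs. In clusters named hepatocyte-like with no limit on UMIs, an alternative chosen after seeing the data, H19 had 96 and 11 UMIs in MASH and 0 in chow.

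Outside hepatocytes Meg3 was a transcript of HSC-like and mesothelial-like nuclei, classes rebuilt by clustering and named by markers. HSC-like nuclei held it at 129, 57.3 and 74.8 CPM in chow and at 49.2 and 42.9 in MASH, so that each MASH level was under every chow level, as for 14.5% of the genes tested there. The difference was -0.92 (SE 0.36) on the log2 scale and did not pass (edgeR, adjusted p = 0.330, with 0.74% of genes called). There the UMIs were spread, with at most 9 in 1 nucleus and 5 or more in 0, 0 and 1 nuclei of chow and 2 and 2 of MASH. The 37 mesothelial-like nuclei of chow replicate 1, a class with enough nuclei in that library alone, held 47 Meg3 UMIs in 16 nuclei, or 976 CPM. Cholangiocyte-like nuclei of chow replicate 3 had 22 Meg3 UMIs, all in 1 nucleus, and MASH had 0 and 1. Endothelial-like nuclei had 2 UMIs in chow and 2 in MASH, and the Vwf cluster, endothelial cells of larger vessels by its leading gene only, had 0 in all 5 libraries. By mean level in chow, Meg3 was thus highest in the mesothelial-like nuclei of that library, followed by cholangiocyte-like nuclei (137 ± 194, n = 2, from that 1 nucleus), pericentral hepatocyte nuclei (101 ± 86.3, n = 3) and HSC-like nuclei (86.9 ± 37.2, n = 3), and the last 3 did not differ beyond their spread.

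Airn in HSC-like nuclei was at 53.1, 23.6 and 24.3 CPM in chow and at 20.5 and 36.7 in MASH, a difference of -0.26 (adjusted p = 0.839), so the MASH levels lay within or near the chow range. Cholangiocyte-like nuclei of MASH held it at 40.4 and 41.8, and endothelial-like nuclei at 0 to 10.4 over all 5 libraries. Macrophage-like nuclei had 1 Airn UMI in chow and 54 in MASH (16.6 and 26.9 CPM), too few to be tested. Igf2r was found in all of these classes, at 15.2 ± 5.48 (n = 3) in chow and 18.7 ± 1.88 (n = 2) in MASH in endothelial-like and 35.9 ± 11.6 and 53.9 ± 6.99 in macrophage-like nuclei. Grb10 was a transcript of endothelial-like nuclei (62.2, 13.7 and 18.7 in chow, 37.8 and 83.2 in MASH) and HSC-like nuclei (93.9, 30.3 and 18.7 in chow, 53.3 and 67.7 in MASH). Peg3 stood at 53.1, 74.1 and 35.5 in chow and 53.3 and 72.8 in MASH in HSC-like nuclei and at 2.67 to 11.1 in endothelial-like ones. Of 12 tests of members between diets in classes outside hepatocytes, 0 passed in edgeR and 1, Meg3 in HSC-like nuclei, had an unadjusted p under 0.05 (0.0285), while edgeR called 0.74% of genes in HSC-like, 0.762% in cholangiocyte-like, 0.856% in endothelial-like and 2.43% in macrophage-like nuclei and 1.15% in the Vwf cluster.

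**Figure D5:**
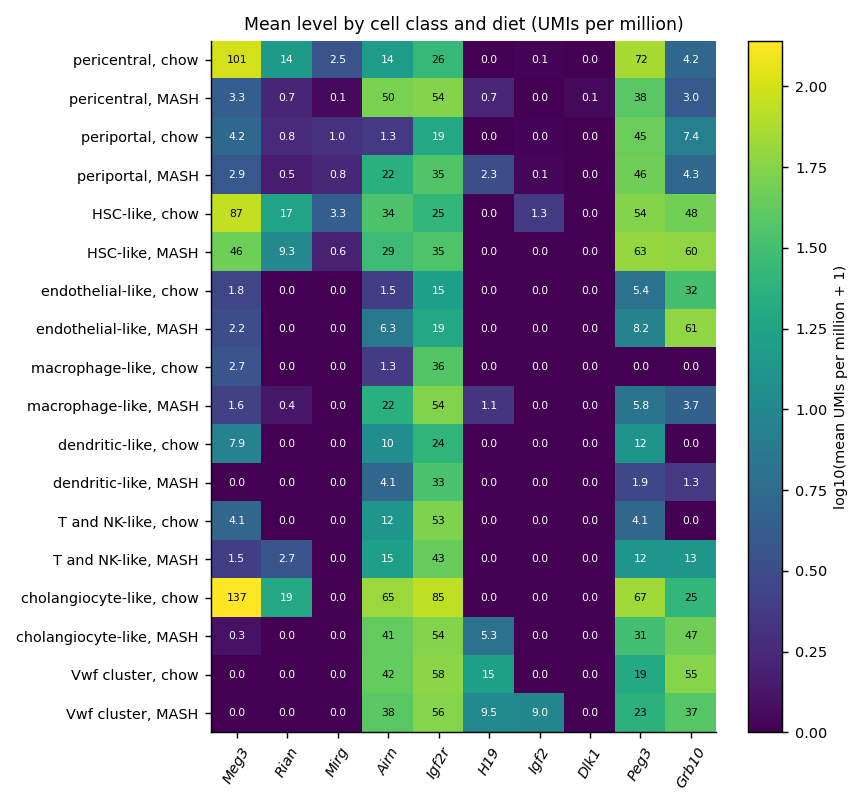
Mean level over libraries (number in each cell, CPM, with colour on a log10 scale after adding 1) of the 10 transcripts by class and diet. Among these classes, which leave out mesothelial-like nuclei, the mean of Meg3 is highest in chow cholangiocyte-like (all 22 UMIs in 1 nucleus), pericentral and HSC-like nuclei, Airn and Igf2r are found in most classes, and Dlk1 is at or near 0 throughout.

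Few other imprinted genes were called between diets. Of 57 further imprinted genes in the matrices, 37 were tested over all hepatocyte nuclei. Of these 3 rose in MASH, with a median log2 fold change of 0.26 against 0.00 over all genes, where 9.26% of genes were called higher, so the share is close to the background. The 3 were Atp10a, a lipid flippase (4.33, adjusted p = 0.0194), Osbpl5, an oxysterol-binding protein (2.53, adjusted p = 0.0361), and Sgce, a sarcoglycan (1.65, adjusted p = 0.0305). Atp10a rested on levels of 0 to 0.151 CPM in the chow zones and 0.869 to 1.41 in MASH. In pericentral nuclei 3 of 32 tested rose in MASH, where 1178 of all 13291 genes did. Among these 3 was Plagl1 (3.32, edgeR, adjusted p = 0.0184). For zone by diet, 3 of 35 were negative and called, where 1.09% of all genes were: Ddc, Impact and Ppp1r9a, at -0.63, -0.55 and -0.54. Slc22a3, a cation transporter of the Airn locus, went from a zone difference of 1.69 in chow (adjusted p = 0.00011) to 3.20 in MASH (adjusted p = 2.61e-05), and the difference between these, 1.51, missed the threshold (adjusted p = 0.0658). Slc22a3 was also among the 15 pericentral markers used to check the zone split. Its pericentral side was thus known beforehand and is not a separate result. Its pericentral level was 10.1, 6.80 and 9.31 CPM in chow and 26.4 and 20.0 in MASH. In this zone 37.7% of genes had both MASH levels above every chow level, and Slc22a3 was not called between diets there.

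Of the insulin-like growth factor axis, 14 of 15 genes were tested, 1 rose and 2 fell, with a median of -0.23 (for these and the next lists, 9.26% of all genes were called higher and 4.48% lower). Igfbp3, a binding protein of the circulating factor, rose by 1.84 (adjusted p = 0.0166), Igf1, the factor made by adult liver, fell by 1.96 (adjusted p = 0.0216), and Irs2, an adaptor of the insulin receptor, fell by 2.22 (adjusted p = 0.0386). In the zone by diet fit Igfbp1 was called at 0.68 (adjusted p = 0.033). Among 7 genes silenced in liver after birth or repressing those, Cd24a (4.28, adjusted p = 0.0122) and Lpl (3.56, adjusted p = 0.00185) rose, and Lpl was also called for zone by diet at -1.65. Markers of HSCs, macrophages and cholangiocytes were also higher in the MASH sums. Their part in the rises of these lists was not tested. Of genes that keep imprints, 12 of 15 were tested and Zfp445, a zinc finger protein that holds methylation at imprinted sites, fell by 1.34 (adjusted p = 0.0476). Of 15 tested neighbours of the loci that are not imprinted in adult liver, Evl rose by 2.46 (adjusted p = 0.00941) and Mas1 by 4.47 (adjusted p = 0.0186). Mas1 overlaps Airn on the opposite strand and stood at 0 to 0.757 CPM in the chow zones and 1.58 to 5.52 in MASH. Reads of 2 overlapping genes on opposite strands are kept apart only by strand, and how strand was set is not given in the sources used here.

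The 5 genes most like Meg3 over the 10 sums of zone and library were Tigar (Pearson r 0.943), Ubxn4 (0.917), Rad1 (0.906), Esco2 (0.904) and A530083I20Rik (0.897), among 10604 genes. Those most like Airn were Slc4a4 (0.981), Ube2e2 (0.977), Plin4 (0.975), Fam126a (0.971) and Eif2d (0.971). The 10 sums come from 5 libraries, so they are not independent and no p is given.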

How the data were processed

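Nuclear RNA was counted in the 5 libraries by droplet-based 3-prime sequencing of sorted nuclei. The deposited values are unnormalized UMI counts in a matrix for each library, made by the authors with Cell Ranger 8.0.1 on GRCm38 (submitters' processing notes). The paper's methods state that intronic reads were left out, so unspliced RNA is counted only where reads fall in exons, of which Airn has 3.60 kb and Meg3 18.1 kb. By identifier 99.6% of genes were found in GENCODE M21, which gave coordinates.

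Hepatocyte nuclei needed 2000 UMIs and 1 UMI of Hnf4a. The zone score was the mean log1p of UMIs per 10000 over Glul, Oat and Slc1a2 against Cyp2f2, Hal and Sds. Levels (CPM, UMIs per 1000000 of the sum) are unscaled. Fits used TMM, whose factors for hepatocyte nuclei were 0.756 to 1.09 in chow and 1.11 and 1.20 in MASH, so folds in the text lie below ratios of CPM. UMIs were summed per library and tested two-sided with the edgeR 4.0.16 quasi-likelihood test (R 4.3.3, filterByExpr, Benjamini-Hochberg over all genes tested, called under 0.05), with the library as a block for zones. Standard errors are those of the log2 fold changes of these fits. With 3 and 2 libraries the sample number limits the precision, beside the depth of each sum. Scripts were tested on simulated counts.

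Other classes were rebuilt in scanpy 1.11.5 from nuclei with at least 300 genes, with the imprinted genes left out of the variable genes, and doublets ranked by Scrublet were removed at 0.8% per 1000 nuclei. A class was tested with at least 20 nuclei in at least 2 libraries per diet. The members and gene lists were chosen with earlier results of these data known. The members are always named, and of each list those called between diets over all hepatocyte nuclei or for zone by diet. Genes called between diets only within a zone are not all named. The 5 genes most like Meg3 and Airn in log2(CPM + 1), at a mean of at least 5 CPM, are named too. Slc22a3 and Plagl1 were named after their values were seen. Alternatives were DESeq2 1.42.0, its size factors, no filter, other gates and zone splits, Storey q-values, a replicate block and leaving out each library.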

Additional observations from a re-analysis of the deposited data

Results flagged for a closer look

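Peg3 was set apart by the test of the difference itself: its contrast between pericentral and periportal hepatocyte nuclei differed between the diets by -0.95 on the log2 scale (SE 0.14, edgeR quasi-likelihood interaction, adjusted p = 0.0046). The pericentral to periportal ratio was above 1 in 3 of 3 chow libraries and below 1 in 2 of 2 MASH libraries. These ratios are the same data as the test. With 0.5 CPM added, 19.4% of genes had a lower ratio in both MASH libraries than in all chow libraries. In the test 2.14% of genes were called, and the call of Peg3 was lost without either MASH library. Meg3 and Airn, whose contrasts between zones differed more, were chosen for that pattern and were not tested. No member's level in a group could be examined for outlying libraries, since groups held 3 and 2 libraries.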

How the results depend on the processing

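Counts of genes called moved with several settings. Over all hepatocyte nuclei 2117 genes were called between diets, against 3598 with DESeq2, 3322 with no filter on low counts and 4063 with Storey q-values, and 216 to 3298 when 1 library was left out (216 without MASH replicate 2, 280 without MASH replicate 1, 859 without chow replicate 2, 3298 without chow replicate 1). For zone by diet 305 were called, 835 with no filter and 36 to 430 without 1 library (36 without MASH replicate 2, 39 without MASH replicate 1). The zone count in chow was 3079, and 1725 with DESeq2; in MASH it was 689, against 453 with DESeq2, 1141 with no filter, 435 with at least 2 Hnf4a UMIs and 185 to 1061 without 1 library (185 and 226 without MASH replicates 1 and 2, 1061 without chow replicate 3). Between diets 1783 genes were called in pericentral nuclei (3236 with no filter, 62 to 2463 without 1 library, of which 116 and 62 without MASH replicates 1 and 2 and 1135 without chow replicate 2), 1690 in periportal nuclei (2929 with DESeq2, 98 to 3022, of which 125 and 98 without MASH replicates 1 and 2 and 535 and 3022 without chow replicates 2 and 1) and 332 over the other classes (1296 with no filter, 113 to 520, of which 113 and 520 without chow replicates 3 and 1 and 134 without MASH replicate 2). Of the changes in count the cause was not tested, beyond the number of genes and libraries that each setting leaves.

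Directions reversed in small differences or small classes. Meg3 between zones in MASH went from 0.19 to -0.18 with at least 2 Hnf4a UMIs and to -0.23 without doublets and other classes. For zone by diet Grb10 was -0.25 with the strict zone split, and without 1 library -0.13 to 0.65, and Igf2r without 1 library -0.024 to 0.29. Peg3 between diets in periportal nuclei was 0.072 with equal-sized groups at both ends of the score, and -0.56 to 0.085 without 1 library. Without 1 library the cholangiocyte-like values were -0.17 to 8.29 for Grb10, -0.91 to 8.51 for Igf2r and -1.17 to 0.67 for Airn, and the HSC-like values -0.023 to 1.21 for Grb10 and -0.61 to 0.10 for Airn.

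The replicate numbers were not taken to pair the libraries, since the groups hold 3 and 2 libraries. The 2 same-numbered pairs had correlations of their deviations of -0.13 and -0.22. With 2 MASH libraries the deviations of one are the exact opposite of the other's, so these correlations cannot decide whether libraries are paired. With the replicate number as a block 1937 genes were called in hepatocyte nuclei, 1820 in pericentral and 1443 in periportal nuclei, and in the Vwf cluster and macrophage-like nuclei 16 and 6 against 32 and 130. With this block Meg3 was -2.67 over all hepatocyte nuclei and -4.09 in pericentral nuclei, Peg3 was called there (-1.42, adjusted p = 0.00712), Igf2r was not (0.75, adjusted p = 0.086), and Mirg in periportal nuclei (0.095) and Igf2r in the Vwf cluster (-0.44) reversed. With 16 and 19 UMIs of Meg3 in the MASH pericentral sums, depth limits what can be said of its zone difference there.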

Other observations

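Of the H19 UMIs outside hepatocytes, cholangiocyte-like nuclei of MASH held 6, macrophage-like nuclei of MASH 3, and the Vwf cluster 5, of which 2 were in chow. Igf2 had 3 UMIs in the Vwf cluster of MASH and 2 in HSC-like nuclei of chow, and Dlk1 had 0 in both classes. Mesothelial-like nuclei outside chow replicate 1 were too few to be summed: 8 nuclei of chow replicate 2 held 19 Meg3 UMIs, 6 of MASH replicate 1 held 7, and those of chow replicate 3 and MASH replicate 2 held 0. Kcnq1ot1, the long non-coding RNA of another imprinted locus, lay at 771, 838 and 723 CPM in chow pericentral nuclei and 1447 and 1570 in MASH. Such a separation in this zone, with both MASH levels above every chow level, was found for 37.7% of genes. Kcnq1ot1 was not among the genes called between diets there or over all hepatocyte nuclei. Its zone difference in chow was -0.44 (edgeR, adjusted p = 0.000835), towards the periportal side. It was chosen after its values were seen.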
